A study of Arabidopsis thaliana with 40 samples.

Results

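The genes described here are the nuclear-encoded subunits and carriers of photosynthetic electron transport in Arabidopsis thaliana, with the antenna proteins left out. They were chosen by locus, as the nuclear genes for photosystem I, photosystem II, the cytochrome b6f complex, plastocyanin, leaf ferredoxin, leaf ferredoxin-NADP+ reductase and the chloroplast ATP synthase. All 35 listed loci had a probe set of their own name among 27826 probe sets on the array, and no filter on low values was applied. They comprise 13 genes of photosystem I, 11 of photosystem II, 8 for the b6f complex and the mobile carriers, and 3 of the ATP synthase.

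In linear electron transport, photosystem II takes electrons from water and passes them through the cytochrome b6f complex and plastocyanin to photosystem I. Photosystem I reduces ferredoxin, from which ferredoxin-NADP+ reductase makes NADPH, and the proton gradient built along the way drives the ATP synthase. The core subunits of most of these complexes are made in the chloroplast, so the nuclear genes supply mainly peripheral subunits, the extrinsic proteins of the water-splitting complex and the soluble carriers.

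RNA from shoots of 28-day-old soil-grown plants was hybridised to Affymetrix arrays, 40 in all, with 4 biological replicates in each of 10 groups. The plants grew in short days (8 h light, 16 h dark) at 80 µmol quanta m-2 s-1, called normal light (NL), and the treated plants received 800 µmol quanta m-2 s-1, called high light (HL), for 6 h. Both lights were given to 4 mutant lines and to the wild type (WT). The line 2cysprx is a mutant of the 2-cysteine peroxiredoxins, which reduce peroxides in the chloroplast, and cyp20-3 is a mutant of the chloroplast cyclophilin CYP20-3. The line oastlB is a mutant of the plastid cysteine synthase subunit O-acetylserine(thiol)lyase B, and serat2;1 of the plastid serine acetyltransferase SERAT2;1. The labels name no allele and each genotype is a single line, so line and genotype cannot be told apart.

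The genes targeted in 3 lines were low on their arrays. The 2-Cys peroxiredoxin gene 2CPA averaged 5.31 in 2cysprx NL arrays against 10.70 in WT NL arrays, and CYP20-3 and OASB were likewise low in both lights. On 2cysprx HL replicate 2, 2CPA read 9.0, against 5.13 to 5.78 on the other 2cysprx HL arrays. The other gene targeted in this line, 2CPB, read 7.67 there, against 6.41 to 7.06. It averaged 6.82 in 2cysprx NL arrays against 9.20 in WT NL arrays. The calls of the 2cysprx comparisons are therefore also given without 2cysprx HL replicate 2. SERAT2;1 was not lower on the arrays labelled serat2;1 (6.38 against 6.36 in WT in NL, and 6.81 against 6.34 in WT in HL). These arrays are therefore named by their label only, and the place of the probes relative to the mutation was not analysed here. On 2cysprx NL replicate 1, 2.39% of the deposited values at or above 8 fell on steps of 0.00195, against 100% on each of the other 39 arrays, and these calls are given without it too. The mesophyll genes RBCS1A (Rubisco small subunit), CA1 (carbonic anhydrase) and RCA (Rubisco activase) had median levels of 13.81, 12.16 and 12.29. The mesophyll marker LHCB2.1 had 6.13, and the medians of the 6 root markers lay between 1.49 and 3.37.

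Levels are RMA log2 intensities, in which a difference of 1 is a doubling, and they are compared within a gene only, since probe sets differ in brightness. The members are bright: 32 of 35 lay in the brightest 10% of probe sets and 22 in the brightest 1%. The exceptions were PSBP2, ATPD and PSAD2, at percentiles 58.2, 66.8 and 84.4 of mean level. The top of the scale was 14.27 on every array, and 6 members averaged within 2 log2 units of it. Whether differences are compressed near the top was not tested. Across the 10 groups, 30 of 35 members moved by less than 0.5 log2 units between their lowest and highest group mean. A change counts as called, and is said to rise or fall, where limma gave a Benjamini-Hochberg adjusted p under 0.05 over all probe sets.

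**Figure D1:**
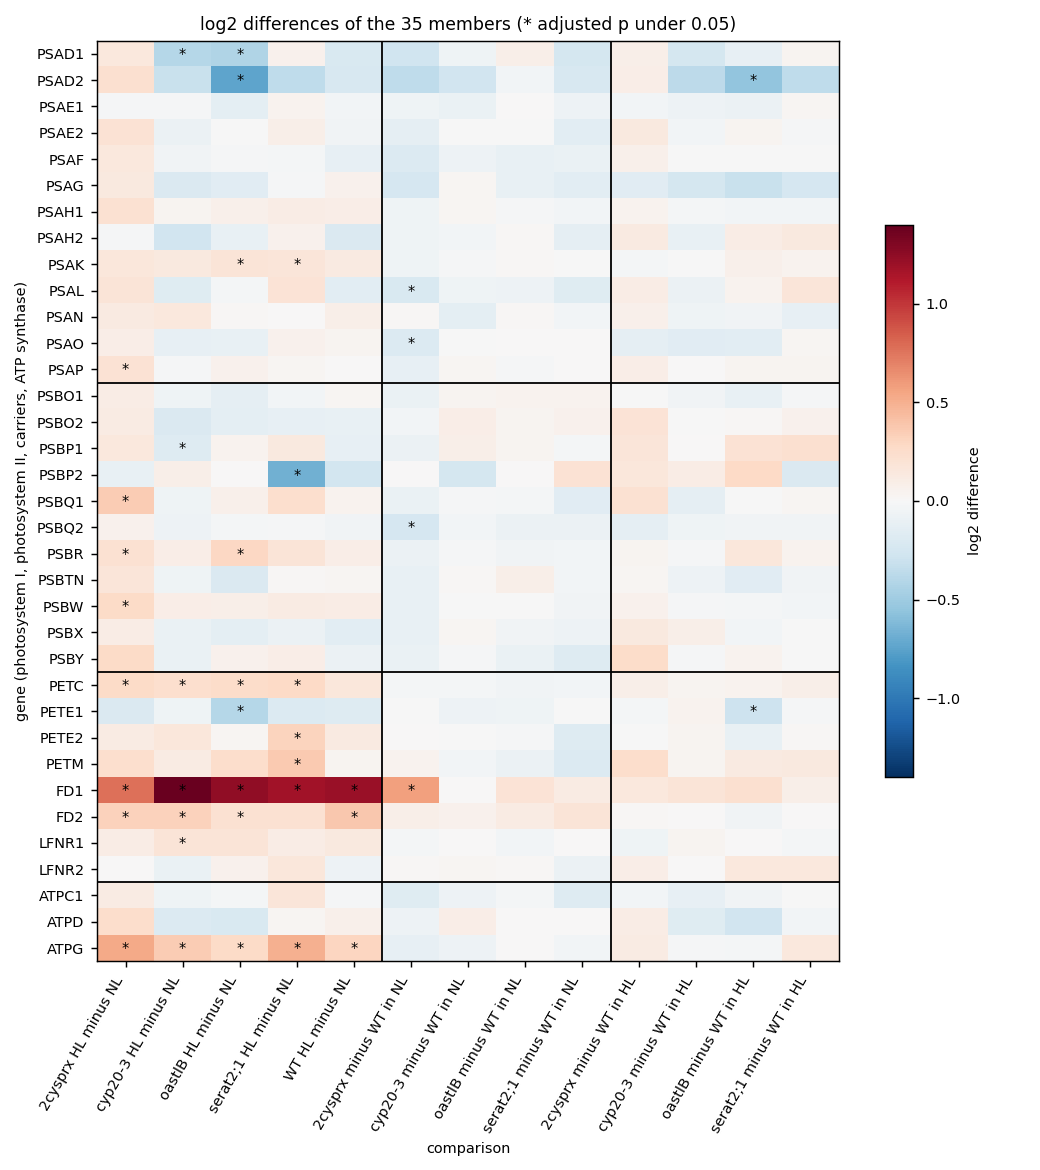
Differences in log2 level of the 35 genes (rows, grouped by photosystem I, photosystem II, carriers and ATP synthase) in the 5 light responses and in each mutant against WT in NL and in HL (columns). Colour gives the log2 difference and asterisks mark calls; the FD1 row stands out in the light responses, at 0.78 to 1.39.

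The first question was which subunits changed their transcript level with 6 h of high light in WT. Of the 35 genes, 3 rose and 0 fell in WT HL, while 19.8% of all probe sets were called in that comparison (10.3% higher and 9.58% lower). Among the brightest 10% of probe sets 43.6% were called. The members' median difference was 0.02, against -0.02 over all probe sets. For 31 of the 35 members the 95% interval of the difference lay within 0.5 log2 units of 0, the exceptions being FD1, FD2, PSAD2 and PSBP2. In shoot RNA, a change of RNA per cell and a change in the share of cells of a type cannot be told apart.

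The largest change was in FD1 (AT1G10960), which encodes the minor leaf ferredoxin, an iron-sulfur protein that carries electrons away from photosystem I. It had 11.18, 11.21, 11.10 and 11.16 in WT HL, against 9.78, 10.03, 9.90 and 10.12 in WT NL. The groups did not overlap, and every HL array was above every NL array. FD1 rose by 1.20 ± 0.09 (SE, n = 4 each), or 2.30-fold, with adjusted p = 2.16e-12 in limma, and was the only member to reach a doubling in WT.

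FD2 (AT1G60950), the gene of the major leaf ferredoxin, had 11.78, 11.88, 11.65 and 11.93 in WT HL, against 11.47, 11.31, 11.53 and 11.40 in WT NL. Again all HL arrays were above all NL arrays. The rise was 0.38 ± 0.07, 1.30-fold, with adjusted p = 2.48e-04 in limma. ATPG (AT4G32260), subunit b′ of the membrane-embedded part of the ATP synthase, had 9.97, 9.89, 9.92 and 10.07 in WT HL, against 9.62, 9.62, 9.63 and 9.76 in WT NL. These groups did not overlap either, and NL replicate 4 was the highest NL array. ATPG rose by 0.30 ± 0.07, 1.23-fold (adjusted p = 0.00165, limma). The other ATP synthase members, ATPC1 (subunit gamma) and ATPD (subunit delta), differed by -0.01 and 0.07 and were not called.

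None of the 13 photosystem I or 11 photosystem II genes was called in WT. Their WT differences ran between -0.22 and 0.13 for photosystem I, and between -0.26 and 0.10 for photosystem II, with medians of -0.04 and -0.05. PETC (AT4G03280), the Rieske iron-sulfur protein of the b6f complex, had 10.38, 10.23, 10.24 and 10.26 in WT HL, against 10.13, 10.08, 10.11 and 10.16 in WT NL. The groups did not overlap, but the difference of 0.16 ± 0.07 was not called (adjusted p = 0.0893, limma).

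The same question was put to each mutant line. FD1 and ATPG rose in HL in all 5 genotypes, and FD2 and PETC in 4 each. FD1 rose by 0.78 in 2cysprx, 1.39 in cyp20-3, 1.24 in oastlB and 1.17 on the arrays labelled serat2;1, which is 1.71-fold, 2.61-fold, 2.36-fold and 2.25-fold. All 20 HL arrays read FD1 between 11.10 and 11.63, above all 20 NL arrays. ATPG rose by 0.53 in 2cysprx, 0.36 in cyp20-3, 0.27 in oastlB and 0.49 on the arrays labelled serat2;1. In none of these lines did the HL and NL arrays of ATPG overlap. FD2 rose by 0.32 in 2cysprx, 0.32 in cyp20-3 and 0.22 in oastlB, and differed by 0.21 without a call on the arrays labelled serat2;1 (adjusted p = 0.0673, limma). PETC rose by 0.27, 0.23, 0.26 and 0.28 in 2cysprx, cyp20-3, oastlB and on the arrays labelled serat2;1. The 4 mutant lines thus had PETC calls that WT lacked, but no test of the difference from WT was passed for this gene.

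**Figure D2:**
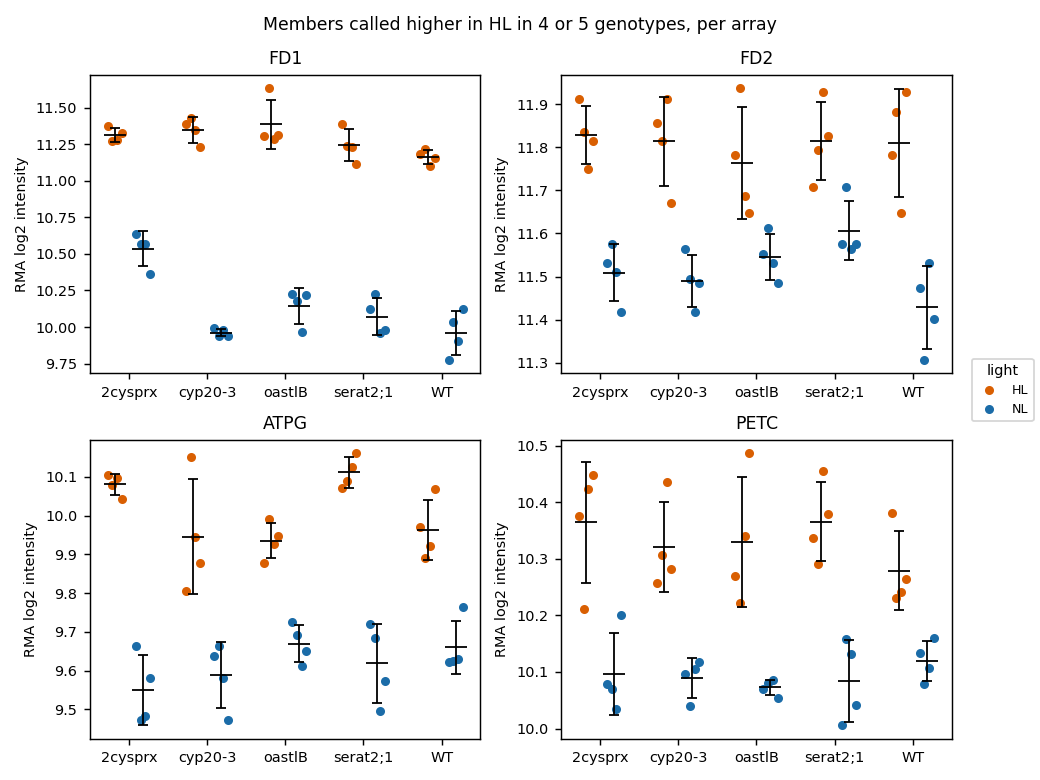
RMA log2 intensity (vertical axis) of FD1, FD2, ATPG and PETC on each array, with HL (orange) left of NL (blue) in each of 5 genotypes (horizontal axis). Points are arrays, and bars give the mean and SD of 4. FD1 separates by light in each genotype, with 2cysprx NL arrays at 10.36 to 10.64 above the NL arrays of the other 4 genotypes at 9.78 to 10.23.

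In 2cysprx, 8 of 35 genes rose in HL and 0 fell, against 8.55% of probe sets called (4.48% higher and 4.08% lower) and 25.0% of the brightest 10%. The members' median was 0.15, against -0.01 over all probe sets. Beside FD1, FD2, ATPG and PETC the 8 were 3 photosystem II genes and 1 photosystem I gene. PSBQ1 (AT4G21280), which encodes an extrinsic protein of the water-splitting complex, had 10.05, 9.73, 9.998 and 9.96 in 2cysprx HL, against 9.60, 9.60, 9.52 and 9.59 in 2cysprx NL. All HL arrays were higher, and HL replicate 2 was the lowest of them. PSBQ1 rose by 0.36 ± 0.08 (adjusted p = 0.00303, limma), PSBW (a small membrane subunit of photosystem II) by 0.27, PSBR (a photosystem II protein needed for stable binding of the extrinsic proteins) by 0.21, and PSAP by 0.20. PSAP, also known as CURT1B, was listed with photosystem I and is known to curve thylakoid membranes. Without 2cysprx HL replicate 2, 6 members were called, with PSAP at 0.15 (adjusted p = 0.151, limma) and PSBR at 0.23 (adjusted p = 0.0535) no longer among them. Without NL replicate 1, 7 were called, without PSBR (0.21, adjusted p = 0.0868). The PSBR call was lost with any of 7 arrays left out, and PSAP also without NL replicate 2 or 3 or HL replicate 1. FD1, FD2, ATPG, PETC, PSBQ1 and PSBW kept their calls without either array, FD1 at 0.79 without HL replicate 2 and 0.81 without NL replicate 1. The members' median was 0.15 without HL replicate 2 and 0.16 without NL replicate 1. The mean of the 4 mesophyll markers ran from 11.24 to 11.28 on 2cysprx HL arrays and from 10.94 to 11.11 on 2cysprx NL arrays, with 2 of 4 called higher. Its part in the 2cysprx light response was not tested.

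In cyp20-3, 5 of 35 members rose and 2 fell in HL, where 17.8% of probe sets were called (8.83% higher and 8.99% lower), and 40.5% of the brightest 10%. The median was -0.06, against -0.03 over all probe sets. PSAD1 (AT4G02770), whose product forms the ferredoxin docking site of photosystem I, had 7.73, 7.71, 7.78 and 7.85 in cyp20-3 HL, against 8.21, 8.35, 8.12 and 7.99 in cyp20-3 NL. The groups did not overlap, and PSAD1 fell by 0.40 on the log2 scale (SE 0.11, adjusted p = 0.00793, limma). PSBP1, an extrinsic protein of the water-splitting complex, fell by 0.18. LFNR1 (AT5G66190), a leaf ferredoxin-NADP+ reductase, rose by 0.18 with overlapping arrays. The PSBP1 and LFNR1 calls were each lost in 7 of 14 other settings or left-out arrays, at adjusted p up to 0.172 and 0.191 in limma. Of 5 markers of dividing cells 2 were lower in cyp20-3 HL, and their mean ran from 4.41 to 5.04 on cyp20-3 HL arrays and from 4.82 to 5.30 on cyp20-3 NL arrays. Their part in the cyp20-3 light response was not tested.

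In oastlB, 6 of 35 members rose and 3 fell in HL, where 16.2% of probe sets were called (7.9% higher and 8.25% lower), and 40.7% of the brightest 10%. The members' median was 0.01, against -0.02 over all probe sets. Both genes of the PsaD subunit fell. PSAD2 (AT1G03130) had 7.30, 6.56, 7.06 and 6.88 in oastlB HL, against 7.59, 7.97, 7.41 and 7.79 in oastlB NL. The arrays did not overlap and were more scattered than for most members. PSAD2 fell by 0.74 on the log2 scale (SE 0.14, adjusted p = 1.61e-04, limma) and PSAD1 by 0.42. PETE1 (AT1G76100), the minor plastocyanin gene, had 9.99, 10.13, 9.92 and 9.91 in oastlB HL, against 10.48, 10.39, 10.25 and 10.45 in oastlB NL. Every HL array was below every NL array, and PETE1 fell by 0.40 (SE 0.07, adjusted p = 8.33e-05, limma). PSBR rose by 0.29 and PSAK, a photosystem I subunit on the antenna side, by 0.18. The PSAK call was lost in 5 of 14 other settings or left-out arrays, and that of FD2 in 6 of 14 (adjusted p up to 0.301 and 0.246, limma). Of the 4 mesophyll markers 1 was higher in oastlB HL, as in WT HL, and none was called in cyp20-3. Of 4 guard cell markers 1 was higher in HL in each of the 5 genotypes, and 1 was lower in cyp20-3 and in oastlB. The part of these markers in the light responses was not tested.

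On the arrays labelled serat2;1, 6 of 35 members rose and 1 fell in HL, where 11.4% of probe sets were called (5.54% higher and 5.9% lower), and 31.2% of the brightest 10%. The median was 0.08, against 0.00 over all probe sets. The calls beyond FD1, ATPG and PETC were PETM (AT2G26500), a small b6f subunit, at 0.37, PETE2 (AT1G20340), the major plastocyanin gene, at 0.31, and PSAK at 0.17. PSBP2 (AT2G30790), the second gene of the extrinsic PsbP protein, was lower by -0.67, with 4.79, 5.47, 4.80 and 5.18 in HL against 6.05, 5.52, 5.42 and 5.92 in NL. These arrays overlapped by a narrow margin, and PSBP2 is the dimmest member. The PSAK call was lost in 8 of 14 other settings or left-out arrays and the PSBP2 call in 6 of 14 (adjusted p up to 0.308 and 0.135, limma). Of the 4 mesophyll markers 2 were higher in HL, with a mean of 11.003 to 11.23 on the HL arrays and 11.01 to 11.23 on the NL arrays, which overlapped.

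The mutants were then compared with WT in the same light. In NL, 1 of 35 members was higher and 3 were lower in 2cysprx, where 10.1% of probe sets were called (5.59% higher and 4.54% lower), and 27.5% of the brightest 10%. The members' median was -0.08, against -0.01 over all probe sets. FD1 had 10.64, 10.57, 10.57 and 10.36 in 2cysprx NL, against 9.78, 10.03, 9.90 and 10.12 in WT NL. The arrays did not overlap. FD1 was higher by 0.58 ± 0.09, 1.49-fold (adjusted p = 1.94e-05, limma), and by 0.54 without 2cysprx NL replicate 1 (adjusted p = 1.82e-04).

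The 3 lower genes belong to the photosystems. PSBQ2 (AT4G05180), the second gene of the extrinsic PsbQ protein, had 11.70, 11.87, 11.62 and 11.79 in 2cysprx NL, against 12.03, 11.996, 12.01 and 11.90 in WT NL. All 2cysprx arrays were lower, and the difference was -0.24 ± 0.07 (adjusted p = 0.0197, limma). PSAL (AT4G12800), which joins photosystem I to its mobile antenna, had 10.80, 10.86, 10.80 and 10.92 in 2cysprx NL, against 11.12, 10.99, 11.06 and 11.08 in WT NL. Here too no array overlapped, and the difference was -0.22 ± 0.07 (adjusted p = 0.0439, limma). PSAO, a neighbouring subunit, was lower by -0.19 (adjusted p = 0.0394). None of these 3 was called without 2cysprx NL replicate 1, at adjusted p = 0.0578 for PSBQ2, 0.101 for PSAL and 0.0768 for PSAO. Without that array FD1 kept its call, and a further member that had no call with all arrays gained one. By sign, 28 of 35 members were below WT in 2cysprx NL and 7 above. Without 2cysprx NL replicate 1, 6 were above and the members' median was -0.10. Against the same WT NL arrays, 22 members were below WT in cyp20-3, 19 in oastlB and 26 on the arrays labelled serat2;1. Genes measured on the same arrays are not independent.

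In the other lines 0 of 35 members were called against WT in NL, where 0.0467% of probe sets were called for cyp20-3, 3.42% for oastlB and 2.42% for the arrays labelled serat2;1. At an unadjusted p under 0.05 the counts of members were 0, 1 and 5 in limma. The same threshold was passed by 2549, 4252 and 4034 of all 27826 probe sets. The 95% intervals lay within 0.5 log2 units of 0 for 33 members in cyp20-3, 35 in oastlB and 33 on the arrays labelled serat2;1. The members' medians were -0.01, -0.01 and -0.04.

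In HL, oastlB was the only line with calls against WT, 0 higher and 2 lower, where 0.855% of probe sets were called (0.449% higher and 0.406% lower). PSAD2 had 7.30, 6.56, 7.06 and 6.88 in oastlB HL, against 7.52, 7.50, 7.52 and 7.48 in WT HL. All oastlB arrays were lower, and the WT arrays lay close together. The difference was -0.56 ± 0.14, 0.68 of the WT level (adjusted p = 0.0461, limma). PETE1 had 9.99, 10.13, 9.92 and 9.91 in oastlB HL, against 10.34, 10.44, 10.23 and 10.11 in WT HL. WT replicate 4 lay below oastlB replicate 2, so the groups overlapped, and the difference was -0.29 ± 0.07 (adjusted p = 0.0449, limma). Both calls are close to the threshold. With each of the 8 arrays left out in turn, the count of called members was 0 or 1. With an intensity trend in the prior variance, 1 member was called for 2cysprx and 1 for the arrays labelled serat2;1. Leaving out oastlB HL replicate 2 gave -0.42 for PSAD2 (adjusted p = 0.173), and leaving out WT HL replicate 2 gave -0.23 for PETE1 (adjusted p = 0.171).

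No member was called in HL for 2cysprx, cyp20-3 or the arrays labelled serat2;1, where 2.21%, 2.24% and 0.956% of probe sets were called. At an unadjusted p under 0.05 the counts of members were 7, 5 and 6 in limma. The same threshold was passed by 3683, 2705 and 3694 of all 27826 probe sets. FD1, which was higher in 2cysprx than in WT in NL, differed by 0.15 ± 0.09 in HL (adjusted p = 0.49), although all 2cysprx HL arrays (11.27 to 11.37) lay above the WT HL arrays (11.10 to 11.21). Without 2cysprx HL replicate 2 it was 0.16 (adjusted p = 0.498).

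**Figure D3:**
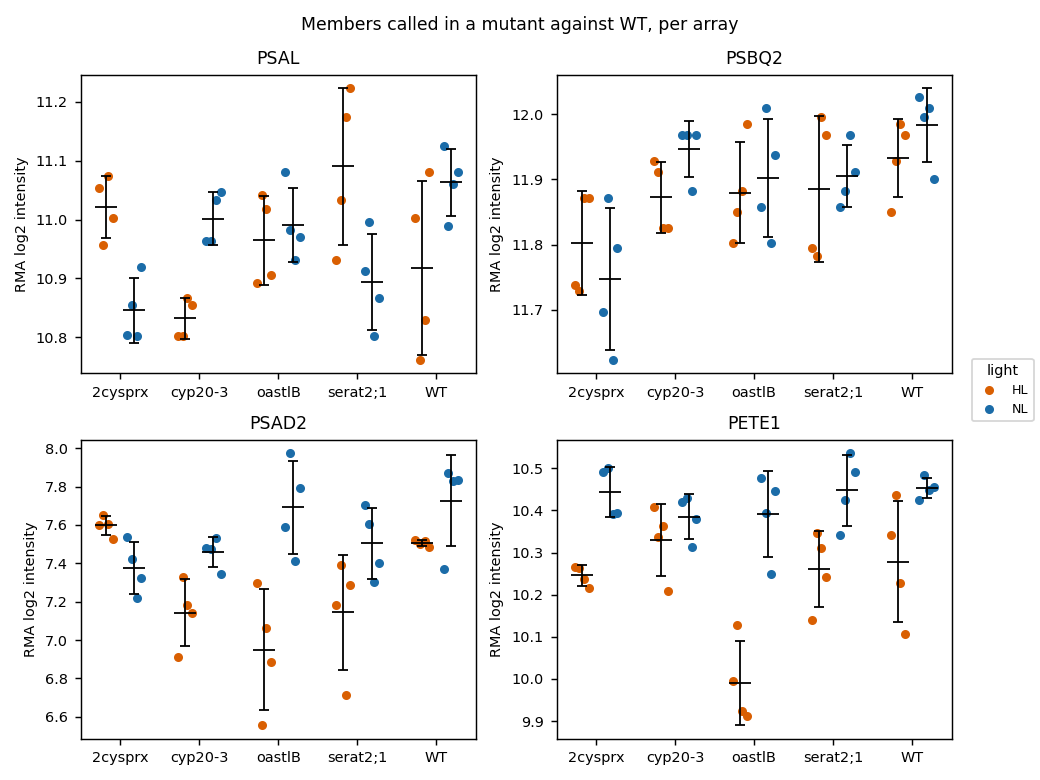
RMA log2 intensity (vertical axis) of PSAL, PSBQ2, PSAD2 and PETE1 on each array, with HL (orange) left of NL (blue) in each of 5 genotypes (horizontal axis). Points are arrays, and bars give the mean and SD of 4. PSAL and PSBQ2 are lower in 2cysprx NL than in WT NL, and PSAD2 and PETE1 are lower in oastlB HL than in WT HL.

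Whether a line's light response differed from that of WT was tested directly, as the HL minus NL difference in the line minus that in WT. In 2cysprx, 2 of 35 members were called, PSAL with a more positive and FD1 with a less positive response, where 6.09% of probe sets were called (2.55% higher and 3.54% lower), and 18.7% of the brightest 10%. FD1 differed by -0.43 (SE 0.12, adjusted p = 0.0273, limma), from a response of 0.78 in 2cysprx against 1.20 in WT. In HL, PSAL had 11.05, 10.96, 11.07 and 11.002 in 2cysprx, against 11.002, 10.76, 10.83 and 11.08 in WT. These HL arrays overlapped, unlike the NL arrays given above. PSAL differed by 0.32 (SE 0.10, adjusted p = 0.0499, limma). Its response was 0.18 in 2cysprx against -0.15 in WT, neither called by itself. Without 2cysprx NL replicate 1 the differences were -0.39 for FD1 (adjusted p = 0.0601) and 0.31 for PSAL (adjusted p = 0.0864). Without 2cysprx HL replicate 2 they were -0.41 for FD1 (adjusted p = 0.0506) and 0.34 for PSAL (adjusted p = 0.0497). The sizes moved little, and of these 4 values the last alone passed the threshold. Without 2cysprx HL replicate 2, PSBQ1 (0.38, adjusted p = 0.0391) and PSBP1 (0.29, adjusted p = 0.0401) gained calls in limma. Neither had a call with all arrays.

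The members' median difference in response was 0.14 in 2cysprx, against 0.01 over all probe sets and 0.03 over the brightest 10%. Related lists had medians of like size, 0.13 for 17 light harvesting genes, 0.13 for 23 assembly and repair factors and 0.11 for the 4 mesophyll markers. The difference in response was positive for 13 of 13 photosystem I genes, 11 of 11 photosystem II genes, 3 of 3 ATP synthase genes and 3 of 8 carrier genes. The share of positive signs over all probe sets was not determined. At an unadjusted p under 0.05 the counts were 5, 6, 1 and 1 in limma, in the same order. That threshold was passed by 4924 of all 27826 probe sets. PSAD2 (0.44), PSAD1 (0.36), PSBY (0.35, a small photosystem II subunit) and PSBQ1 (0.31) had large values without a call. Genes measured on the same arrays are not independent, and these values share the NL and HL arrays of the comparisons above. Over 22 other settings and left-out arrays the number of positive members lay between 29 and 31 of 35.

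**Figure D4:**
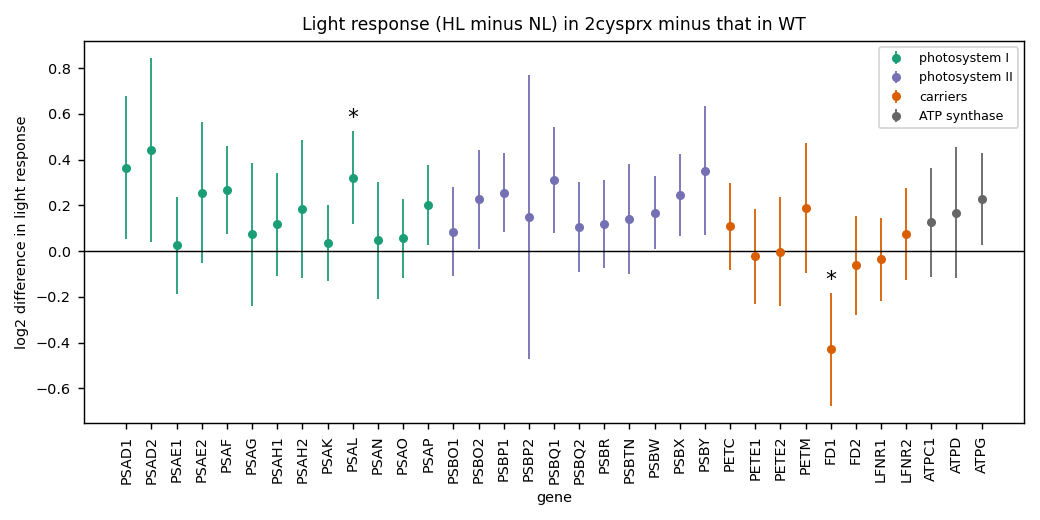
Light response (HL minus NL) in 2cysprx minus that in WT, on the log2 scale (vertical axis), for each of the 35 genes (horizontal axis), coloured by complex. Points are limma estimates, bars are 95% intervals and asterisks mark the 2 calls. Photosystem genes lie above 0 and FD1 lies lowest, at -0.43.

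In cyp20-3, oastlB and the arrays labelled serat2;1, 0 of 35 members were called for a difference in light response from WT, where 0.855%, 2.80% and 2.29% of probe sets were called. At an unadjusted p under 0.05 the counts of members were 0, 3 and 4 in limma. The same threshold was passed by 2644, 4462 and 4467 of all 27826 probe sets. The medians over members were -0.02, 0.01 and 0.05.

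In all, 9 subunits or carriers among the members are encoded by a pair of genes, which allowed both copies to be compared on the same array. For each pair the log2 gap between the first and second gene was compared between HL and NL, averaged over the 5 genotypes. A permutation test was used, in which light labels were permuted within genotype (100000 resamples, two-sided, adjusted over 9 pairs). The gap changed in 5 of 9 pairs. How often the gap between unrelated probe sets of like brightness passes this test was not tested. The count therefore has no background share beside it, and many bright probe sets were called in the single light responses given above. A change of gap is a difference between the measured responses of both probe sets and does not show that either copy stayed constant. The copies differ in brightness, and whether compression of the scale or probes that also bind the partner add to a gap change was not tested.

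The ferredoxin gap, FD1 minus FD2, moved by 0.87 with HL (adjusted p = 4.5e-05, permutation test). The change was 0.46 in 2cysprx, 1.06 in cyp20-3, 1.02 in oastlB, 0.96 on the arrays labelled serat2;1 and 0.82 in WT. In each genotype the gap on the HL arrays lay above that on the NL arrays without overlap. The raw p behind the adjusted value, 1e-05, is the smallest these resamples can give.

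The plastocyanin gap, PETE1 minus PETE2, moved by -0.35 with HL (adjusted p = 4.5e-05, permutation test). The change was negative in 5 of 5 genotypes, between -0.50 and -0.21. The gaps on HL and NL arrays overlapped in WT and cyp20-3, and separated in 2cysprx, oastlB and on the arrays labelled serat2;1. On the arrays labelled serat2;1, PETE2 had 11.32, 11.38, 11.29 and 11.36 in HL, against 11.06, 11.13, 10.89 and 11.02 in NL. PETE1 had a negative HL difference in all 5 genotypes, called in oastlB, and PETE2 a positive one in all 5, called on the arrays labelled serat2;1.

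Smaller shifts passed the test for PSAH1 minus PSAH2 (0.21), PSBQ1 minus PSBQ2 (0.15) and LFNR1 minus LFNR2 (0.13), each with adjusted p = 6.5e-04 in the permutation test. PSAH1 and PSAH2 encode the photosystem I subunit at which the mobile antenna docks, and their gap moved the same way in 5 of 5 genotypes, with overlapping HL and NL arrays in each. The PSBQ gap also moved the same way in 5 of 5, most in 2cysprx (0.30), where it ran from -2.0 to -1.69 on HL arrays and from -2.27 to -2.10 on NL arrays. The PSBQ change was 0.25 on the arrays labelled serat2;1, also without overlap. It was 0.10 in WT, 0.10 in oastlB and 0.01 in cyp20-3, with overlapping arrays in each. The change of the reductase gap was positive in 4 of 5 genotypes, with -0.05 on the arrays labelled serat2;1. In WT the gap itself ran from 0.86 to 1.06 on HL arrays and from 0.74 to 0.78 on NL arrays. The arrays also separated in cyp20-3, but overlapped in 2cysprx, in oastlB and on the arrays labelled serat2;1. The pairs PSAD (0.12, adjusted p = 0.11), PSAE (-0.06, 0.28), PSBO (0.07, 0.096) and PSBP (0.19, 0.11) did not pass the permutation test. For PSBP the values ran from -0.27 to 0.80 over genotypes.

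**Figure D5:**
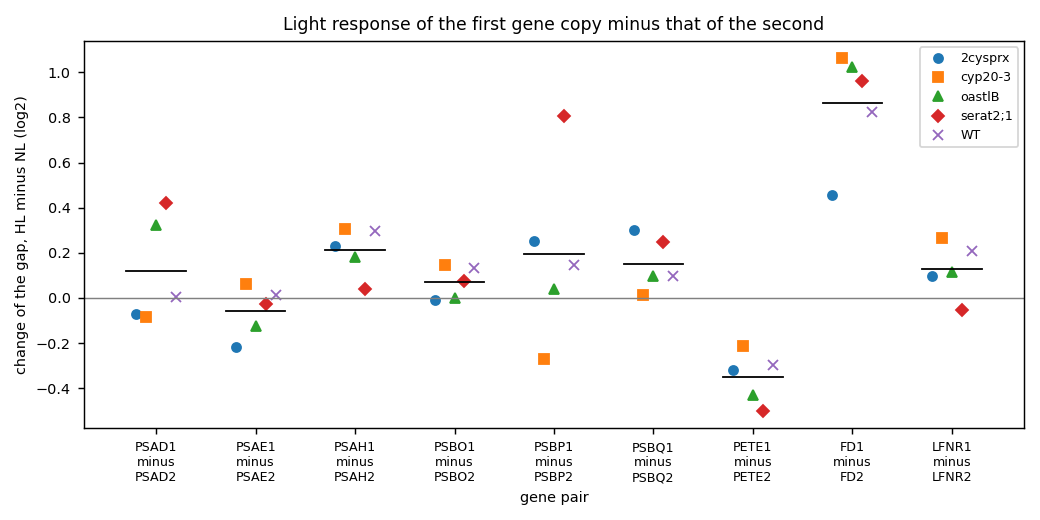
Change with light (HL minus NL) of the log2 gap between the genes of each pair (vertical axis), for 9 pairs (horizontal axis). Each point is a genotype and the line is the mean of 5; the FD1 minus FD2 points lie between 0.46 and 1.06, and the PETE1 minus PETE2 points between -0.50 and -0.21.

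Related genes outside the set were read from fixed lists in the WT light response. In that comparison 19.8% of all probe sets were called (10.3% higher and 9.58% lower). Of 9 paralogs outside the member set, 3 rose and 0 fell in WT HL: FD3, the root ferredoxin, at 0.53, RFNR1, a root-type ferredoxin-NADP+ reductase, at 0.43, and FDC1, a ferredoxin with an extended C terminus, at 0.36. Of 23 assembly and repair factors of the thylakoid complexes 2 rose and 8 fell, with a median of -0.09. The largest were CCB1, which helps attach a haem to cytochrome b6, at 0.56, HHL1, a photosystem II repair protein, at -0.55, and HCF136, a photosystem II assembly factor, at -0.46. Of 17 light harvesting genes 2 rose and 4 fell, with a median of -0.06. Of 32 plastid-encoded subunits 3 had a probe set, PSBA, PSBE and ATPH, and 0 were called. They read 13.69 to 13.81, 14.08 and 14.27 on the arrays, at the top of the scale, so these probe sets give little information on change.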

How the data were processed

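The series holds 40 Affymetrix arrays of Arabidopsis shoots, 4 biological replicates in each of 10 labelled groups. The authors deposited log2 values made with RMA, per the submitters' processing notes; the sources used here name no array type, probe set definition or genome build. The replicate number limits the precision, with SEs of member differences between 0.06 and 0.22 for 2 groups and between 0.08 and 0.31 for differences in response.

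The limma package (version 3.58.1, R 4.3.3) was fitted to all 27826 probe sets with a mean per group, over all 40 arrays. Each of 17 comparisons was adjusted by Benjamini-Hochberg. The fit was run on simulated data with independent noise and set changes larger than most of those called here. That run does not assess calls of smaller changes. Pair gaps were tested by permutation (scipy 1.17.1).

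The members and lists were chosen with earlier results of these data known. Array values are given for the 3 largest called rises and falls in WT, the 3 largest called differences of each mutant from WT, the 2 largest called differences in response and, for pairs, the ferredoxin and plastocyanin genes, with gaps or their ranges for the rest; other members shown per array were chosen after their values were seen. At most 3 genes are named per list. Alternatives were other normalizations, an intensity trend, brighter probe sets, fewer arrays, a replicate block and left-out arrays. Same-numbered replicates did not deviate together (correlations -0.11 to 0.12).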

Additional observations from a re-analysis of the deposited data

Results flagged for a closer look

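Outlying arrays were sought for 7 of the named members, in 70 groups of 4 arrays, and the other named members were not checked. In these groups 5 arrays stood apart from the other 3 by Dixon's 95% criterion, where chance gives about 1 in 20. PSAD2 read 7.37 on WT NL replicate 1, against 7.83 to 7.87 on the other 3 arrays. ATPG read 9.76 on WT NL replicate 4, against 9.62 to 9.63. PSBQ2 read 11.88 on cyp20-3 NL replicate 3, against 11.97 on each of the others. FD1 read 11.63 on oastlB HL replicate 2, against 11.29 to 11.31, so the rest of that group lay closer to the other HL arrays. FD2 read 11.71 on NL replicate 2 of the arrays labelled serat2;1, against 11.56 to 11.58. The light response differed between 2cysprx and WT in limma's test of the difference for PSAL (0.32) and FD1 (-0.43).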

How the results depend on the processing

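The 42 called differences and 5 pair gaps that passed were recomputed 819 times in all: 695 values kept the call, 124 lost it and 0 changed direction. Of these 47 results, 20 kept their call in every setting, among them the 5 pair gaps. Differences without a call were not followed in this way. FD1 kept its call in all 5 light responses and in 2cysprx against WT in NL under 14 settings each. With an intensity trend in the prior variance, the counts were 8 for the WT light response, 11 for cyp20-3, 12 for the arrays labelled serat2;1, 1 for 2cysprx and 1 for serat2;1 against WT in HL, and 6 and 2 for the difference in response of 2cysprx and serat2;1. With only the brighter probe sets they were 6 for WT, 11 for cyp20-3, 13 for serat2;1, 1 for serat2;1 against WT in HL, and 6 and 2 for those differences in response. With only the arrays compared they were 2 for the 2cysprx light response, 4 for cyp20-3, 3 for oastlB, 2 for serat2;1, 1 for 2cysprx against WT in NL, and 0 for both oastlB against WT in HL and the 2cysprx difference in response. Cyclic loess gave 1 for oastlB against WT in HL. The replicate block gave 1 for the 2cysprx difference in response and moved no other count by over 1.5 times.

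With each array left out in turn, the counts ran from 3 to 4 for the WT light response, 6 to 8 for 2cysprx, 5 to 7 for cyp20-3, 7 to 10 for oastlB and 5 to 9 for serat2;1, and 5 to 6 pairs passed. For 2cysprx against WT in NL they ran from 1 to 4, with 2 without 2cysprx replicate 1 or 2, 1 without replicate 3, and 2 without WT replicate 1, 3 or 4. For oastlB against WT in HL they ran from 0 to 1, with 1 without oastlB replicate 1 or 2 or WT replicate 4, and 0 without any of the other 5 arrays. For the 2cysprx difference in response they ran from 0 to 3, with 3 without 2cysprx HL replicate 2. There the count was 0 without 2cysprx NL replicate 1, 2 or 3, 2cysprx HL replicate 3, WT NL replicate 1 or WT HL replicate 2, and 1 without WT NL replicate 3 or 4, 2cysprx HL replicate 1 or 4, or WT HL replicate 3. Without serat2;1 HL replicate 1 the count was 1 for serat2;1 against WT in HL and 1 for its difference in response, which was also 1 without WT HL replicate 4, so both ran from 0 to 1. Dim signal limits PSBP2 most, at percentile 58.2 of mean level.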

Other observations

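The list of 23 assembly and repair factors of the thylakoid complexes had 6 higher and 3 lower genes in the light response of 2cysprx, with a median of -0.04. It had 1 higher and 10 lower in cyp20-3, 3 higher and 7 lower in oastlB, and 3 higher and 7 lower on the arrays labelled serat2;1. Their medians were -0.16, -0.18 and -0.11. In the light responses of 2cysprx, cyp20-3, oastlB and the arrays labelled serat2;1, 8.55%, 17.8%, 16.2% and 11.4% of all probe sets were called. Among the brightest 10% the shares were 25.0%, 40.5%, 40.7% and 31.2%. Of the 17 light harvesting genes, 1 rose and 0 fell in 2cysprx HL, 0 rose and 8 fell in cyp20-3, 0 rose and 6 fell in oastlB, and 0 rose and 4 fell on the arrays labelled serat2;1. Against WT in HL, 1 light harvesting gene was higher and 0 were lower in 2cysprx, 0 and 2 in cyp20-3, 1 and 3 in oastlB, and 0 and 0 on the arrays labelled serat2;1. In those comparisons 2.21%, 2.24%, 0.855% and 0.956% of all probe sets were called. In NL, 0 were higher and 2 lower in 2cysprx, and 0 were called in the other lines. There 10.1% of all probe sets were called for 2cysprx, 0.0467% for cyp20-3, 3.42% for oastlB and 2.42% for the arrays labelled serat2;1. In limma's test of the difference in light response from WT, 1 light harvesting gene was called higher in 2cysprx, 2 lower in oastlB, 1 lower on the arrays labelled serat2;1 and 0 in cyp20-3. Of the assembly and repair factors 1 was called higher in 2cysprx and 0 in the other lines. In that test 6.09% of all probe sets were called in 2cysprx, 0.855% in cyp20-3, 2.8% in oastlB and 2.29% on the arrays labelled serat2;1.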
